A study of Homo sapiens with 24 samples.

Results

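Cyclic AMP phosphodiesterases are the enzymes that break down cyclic AMP, the messenger made by adenylyl cyclases when hormones and prostaglandins act on receptors coupled to the stimulatory G protein. The messenger acts through protein kinase A and a few other binding proteins, and phosphodiesterases set how high it rises and how far it spreads in a cell. In the gut epithelium the messenger is best known for driving chloride and fluid secretion. The genes described here are 10 in number, PDE3A, PDE3B, PDE4A, PDE4B, PDE4C, PDE4D, PDE7A, PDE7B, PDE8A and PDE8B, and their probes were found by these names in the files. They have 15 probes among 34127 on the array. The group was chosen on the low PDE4B level with butyrate, so both butyrate comparisons of PDE4B, and NaB against Ctl for all members, are given as a description without a test.

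The cells were HCT-116, an established line from a human colorectal cancer, stably transfected with a Tet repressor and with DN-Tcf4 under a doxycycline-inducible promoter, and grown from 1 clone. DN-Tcf4 is a shortened Tcf4, a Wnt pathway transcription factor, made to block the activity of the normal one. All 4 groups share this genotype: untreated (Ctl), 5 mM sodium butyrate (NaB), 4 µg/ml doxycycline (Doxy) and both agents (DoxyNaB), with butyrate, a histone deacetylase inhibitor made from dietary fibre in the colon, given for 17.5 hr. Each group has 6 arrays, 1 from each of 6 experiments that the methods call biological replicates. Doxycycline was checked by TCF7L2, the gene of Tcf4. In DoxyNaB against NaB, 2 of its 3 probes rose by 4.46 and 2.96 on the log2 scale (limma, adjusted p = 1.77e-06 and 3.65e-05) and the third fell by 1.25 (adjusted p = 0.00568). In NaB against Ctl, with no doxycycline, the first 2 rose by 1.9 and 0.91 (adjusted p = 4.68e-04 and 0.0294). The third differed by -0.08 there (adjusted p = 0.777). How much of these signals came from the DN-Tcf4 message was not tested. In Doxy against Ctl the first 2 probes differed by 0.30 and -0.17 (adjusted p = 0.861 and 0.921), so with doxycycline alone no rise of TCF7L2 was detected. Values of the Doxy group are therefore those of arrays labelled doxycycline.

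A level below is a probe's signal on the log2 scale, relative to the 75th percentile of its own array (380.2 to 1323 signal units). It compares 1 probe between arrays and not 1 gene with another. The scanner software calls a spot well above background, and a probe was tested when every array of at least 1 group had that call, which kept 18983 probes. Between 52.5% and 88.1% of the probes' spots were well above background on an array. The negative control spots had a mean net signal of 110.9 to 248.9 on 5 of the 12 arrays with butyrate (NaB of experiments 2, 3 and 4, DoxyNaB of experiments 2 and 4) and of 48.4 to 79.6 on all other arrays. Experiments 2 to 4 shared 1 scan date and experiments 5 and 6 another, each with all 4 groups. Each of these experiments was on 1 slide of its own. In experiment 1 the arrays without butyrate were on 1 slide and scan date and those with it on another. An effect of butyrate therefore cannot be told apart from one of slide or scan date in that experiment. Of 8 markers of colon epithelium fixed for the check, 6 were well above background on all 24 arrays (EPCAM, CDH1, KRT8, KRT18, KRT19 and CDX2), while VIL1 and CDH17 were so on 5 and 2. Of 8 markers of blood, vessel, stromal, muscle and liver cells, CD68, COL1A1 and DES were tested, PTPRC, CD3E, PECAM1 and ALB were above background on at most 11 to 15 arrays, and COL3A1 on 0. The log2 of the summed level of the 3 tested ones lay between -0.97 and -0.38 in Ctl, -1.08 and -0.30 in Doxy, -0.03 and 0.89 in NaB, and 0.54 and 0.95 in DoxyNaB, and its part in the results below was not tested.

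Of the 15 probes, 8 were tested, for the 6 genes PDE3B, PDE4A (with 3 probes), PDE4B, PDE4C, PDE7A and PDE8A. In DoxyNaB against Doxy, 3 of these 8 were past a fold over 2 with an adjusted p under 0.01: PDE4B and 1 probe of PDE4A were lower, and PDE4C was higher. PDE4B is the gene the group was chosen on and PDE4C entered the test only through the groups in which it was high, so the count is a description. The same thresholds were passed by 30.6% of all tested probes, 18.3% upwards and 12.3% downwards, so the share of members is near that of the array. The median log2 difference of the 8 was -0.45, beside 0.10 over all tested probes. In NaB against Ctl the same 3 probes were past both thresholds, beside 31.7% of all tested probes (3930 upwards and 2086 downwards), and their group levels did not overlap in either comparison, beside 43.1% of 18330 probes with levels that did not overlap in NaB against Ctl and 41.4% in DoxyNaB against Doxy. NaB against Ctl is part of how the family was chosen, and nothing is read from its count. Quantile normalization put 4 of the 8 past both thresholds in DoxyNaB against Doxy, and median scaling 5.

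PDE4B belongs to the PDE4 enzymes, which break down cyclic AMP only and are the target of rolipram. The single probe lies at chr1:66612377-66612436 on the plus strand of NCBI36, the build of the files. The level was between 2.21 and 2.40 in Ctl, with a median of 2.28, and between 2.20 and 2.38 in Doxy, with a median of 2.35. It was between -3.11 and -1.85 in NaB, with a median of -2.41, and between -2.94 and -2.40 in DoxyNaB, with a median of -2.67. All 12 arrays with butyrate were thus below all 12 without it, and the probe was well above background on all 24.

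In DoxyNaB against Doxy, the PDE4B difference was -5.01 ± 0.29 (SD over 6 experiments) on the log2 scale, a level 32.1-fold lower, and it was lower in 6 of 6 experiments. In bulk RNA such a difference cannot tell fewer cells with a message from less message per cell. In NaB against Ctl the PDE4B difference was -4.69 ± 0.47, a level 25.8-fold lower, between -5.34 and -4.15 in the single experiments. The difference between DoxyNaB and Doxy was of like size within the scan date of experiments 2 to 4 (-4.92) and within that of experiments 5 and 6 (-4.98). With normexp background correction, which fits the background from the spots themselves, it was -3.87. Here and below, normexp also added 50 to every signal, which makes log2 differences between dim signals smaller.

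**Figure D1:**
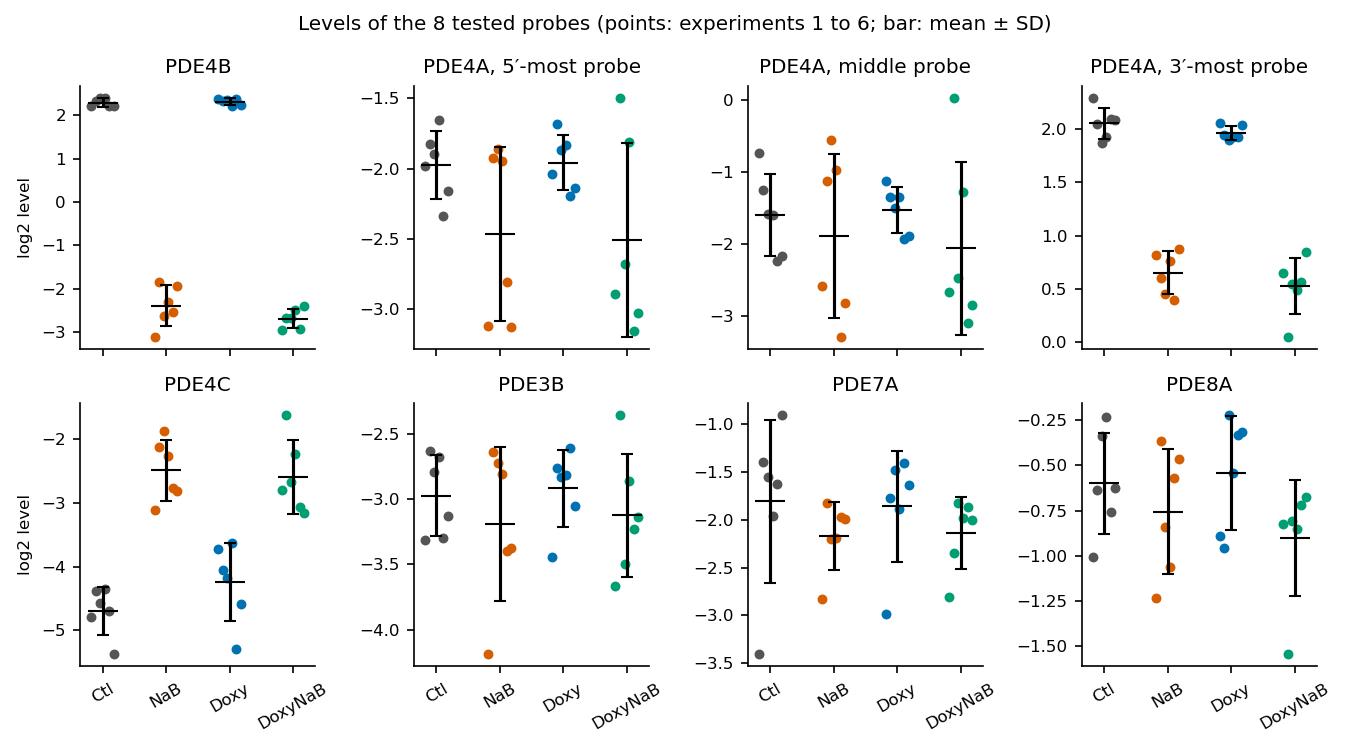
Log2 level (vertical axis, relative to the 75th percentile of the array) of the 8 tested probes in the 4 groups. Points are the arrays of experiments 1 to 6 and bars the mean ± SD (n = 6); each panel has its own axis. PDE4B and the 3′-most PDE4A probe are lower on all arrays with butyrate than on all without, and PDE4C is higher on all of them.

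The PDE4B probe lies near the 3′ end of the gene and cannot tell which of the gene's promoters were in use. RefSeq lists 6 starts for PDE4B on GRCh38.p14, another build than that of the probe coordinates. The windows of 300 bases at the first and second start hold 19 and 21 CpG dinucleotides, and those at the other 4 hold 0 to 4, beside a median of 14 over all 35116 windows of the table. The 250 bases before the first and before the last start are shown to let the CpG-rich and the CpG-poor kind of PDE4B promoter be compared, with each CG in capitals, 5′ to 3′ on the plus strand. They lie at chr1:65792260-65792509, with 17 CpG and a GC content of 62.4%, and at chr1:66354285-66354534, with 1 CpG and a GC content of 44.0%.
PDE4B first start: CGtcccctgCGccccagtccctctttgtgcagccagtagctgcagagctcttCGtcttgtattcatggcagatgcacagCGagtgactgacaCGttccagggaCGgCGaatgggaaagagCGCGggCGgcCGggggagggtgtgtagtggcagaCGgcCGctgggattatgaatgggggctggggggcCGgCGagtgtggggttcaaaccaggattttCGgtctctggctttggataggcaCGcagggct
PDE4B last start: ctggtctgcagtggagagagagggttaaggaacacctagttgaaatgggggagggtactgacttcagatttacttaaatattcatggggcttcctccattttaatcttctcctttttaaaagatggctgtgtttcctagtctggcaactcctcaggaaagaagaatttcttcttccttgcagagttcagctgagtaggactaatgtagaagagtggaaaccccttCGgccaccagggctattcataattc

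PDE4A encodes the second PDE4 enzyme, and its 3 probes lie on chromosome 19 of NCBI36, on the plus strand. The 3′-most probe, at chr19:10441226-10441285, had a level between 1.87 and 2.29 in Ctl, with a median of 2.07, and between 1.90 and 2.06 in Doxy, with a median of 1.94. It was between 0.40 and 0.88 in NaB, with a median of 0.69, and between 0.05 and 0.85 in DoxyNaB, with a median of 0.56. The levels with and without butyrate did not overlap in either comparison, as was so for 43.1% of 18330 probes in NaB against Ctl and 41.4% in DoxyNaB against Doxy.

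In DoxyNaB against Doxy this PDE4A probe fell by 1.44 ± 0.24 (SD, n = 6), a level 2.71-fold lower (limma, adjusted p = 6.57e-11; 95% interval -1.63 to -1.25). It was lower in 6 of 6 experiments, and by 1.56 and 1.28 in the means of experiments 2 to 4 and of 5 and 6. In NaB against Ctl the difference was -1.40 ± 0.19, a level 2.64-fold lower. The other 2 PDE4A probes, of lower signal, did not pass the fold with the scaling used here. The 5′-most, at chr19:10433615-10433674 and designed on another transcript variant, differed by -0.55 ± 0.51 in DoxyNaB against Doxy (adjusted p = 0.00778), and passed it with quantile normalization (-1.098, adjusted p = 5.7e-06) and with median scaling (-1.11, adjusted p = 1.6e-06). The middle probe, at chr19:10438818-10438877, differed by -0.54 ± 1.08 (adjusted p = 0.200), and by -1.096 with median scaling (adjusted p = 4.3e-04).

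The 3 probes of PDE4A therefore disagree in size, and the disagreement varied between experiments and between the comparisons within an experiment. In experiment 3 the middle probe differed by 1.04 in NaB against Ctl and by -0.97 in DoxyNaB against Doxy. For the middle probe, the difference between DoxyNaB and Doxy was 0.16 in the mean of experiments 2 to 4 and -1.08 in that of experiments 5 and 6, and between NaB and Ctl it was 0.60 and -0.85. The adjusted p of the middle probe was 0.791 (limma) on the first of these scan dates and 0.00126 on the second, where it passed both thresholds. On the 5 arrays with butyrate whose negative controls exceeded a mean net signal of 100, the middle probe was 0.07 to 1.38 higher than on the partner without butyrate. On the other 7 it was 0.65 to 1.84 lower, as differences of -1.84 to -0.65 on the log2 scale. The 5′-most probe gave -0.29 to 0.19 on the same 5 arrays and -1.14 to -0.47 on the other 7. The 3′-most probe gave -1.89 to -1.16 on the 5 and -1.70 to -1.19 on the 7. The part of the negative control signal in these differences was not tested.

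**Figure D2:**
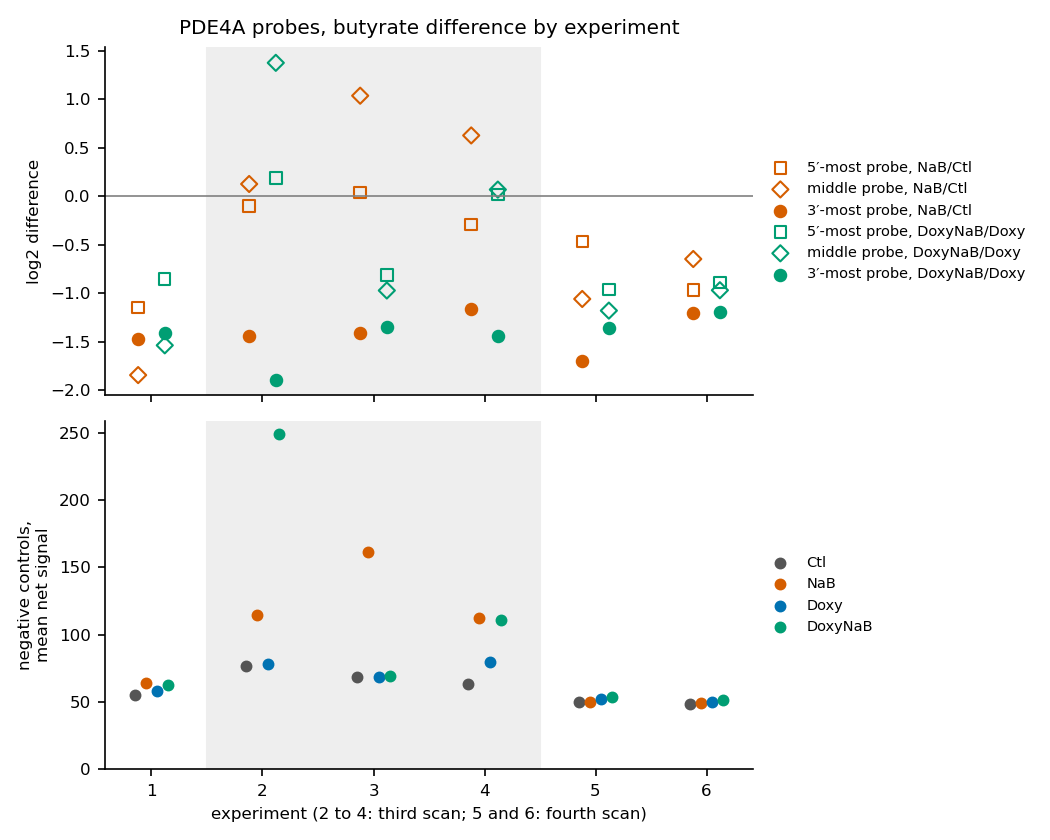
Upper panel: log2 difference of the 3 PDE4A probes with butyrate minus without, in each experiment, for NaB/Ctl and DoxyNaB/Doxy. Lower panel: mean net signal of the negative control spots of each array. Grey marks experiments 2 to 4, which shared a scan date: the 3′-most probe lies between -1.89 and -1.16 there, while the middle probe ranges from -0.97 to 1.38.

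RefSeq lists 5 starts for PDE4A, and the window at the first holds the 1 full cyclic AMP response element (TGACGTCA, searched on both strands) found among the PDE4A windows. The element is the site bound by CREB, the factor that protein kinase A activates, and it is present in 1.85% of all windows of the table. Among 32 windows of 8 of the 10 genes it was found in 2, the other being that of PDE7B. PDE4B held 0, and a TCF motif (CTTTGAT, in 2.62% of all windows) was found in 0 of the 32. The 250 bases before the first PDE4A start, at chr19:10416523-10416772 of GRCh38.p14 on the plus strand, are shown for their 5 copies of TGACG or its reverse complement, the core of the element (in capitals). This core was found in 24.6% of all windows and in 4 of the 32 windows of the members (12.5%). Of those, 1 was a PDE4A window and 0 were of PDE4B. Each full element holds 2 overlapping copies. The full element of this window lies across the start, at chr19:10416770-10416777, with its first 3 bases in the stretch shown and the other 5 after it. A match of letters is a description and not a bound site.
PDE4A first start: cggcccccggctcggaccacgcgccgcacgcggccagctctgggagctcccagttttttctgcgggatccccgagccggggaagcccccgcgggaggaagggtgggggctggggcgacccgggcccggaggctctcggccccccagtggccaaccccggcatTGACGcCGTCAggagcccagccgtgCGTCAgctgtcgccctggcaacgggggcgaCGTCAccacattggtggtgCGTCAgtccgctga

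PDE4C encodes the third PDE4 enzyme, and its probe at chr19:18182784-18182843 on the minus strand of NCBI36 moved the other way. Its level was between -5.38 and -4.35 in Ctl, with a median of -4.64, and between -5.29 and -3.63 in Doxy, with a median of -4.12. It was between -3.11 and -1.86 in NaB, with a median of -2.52, and between -3.16 and -1.62 in DoxyNaB, with a median of -2.73. All arrays with butyrate were above all arrays without it.

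Of the Ctl arrays 3 of 6, and of the Doxy arrays 5 of 6, had the PDE4C probe well above background, as did all 12 with butyrate. It thus entered the test only through the groups in which it was high. In DoxyNaB against Doxy the difference was 1.65 ± 0.56 (SD, n = 6), a level 3.15-fold higher, and no test is given for it. In NaB against Ctl the difference was 2.21 ± 0.39, a level 4.61-fold higher. The size depended on the processing: with normexp and its added 50 the differences were 1.01 and 0.68. With quantile normalization the first was 0.92, under the fold. On the 5 arrays of high negative controls the PDE4C difference was 1.40 to 2.71, and on the other 7 it was 0.94 to 2.56.

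The remaining tested members, PDE3B, PDE7A and PDE8A, were well above background on all 24 arrays, and none of the 3 passed the thresholds in DoxyNaB against Doxy with the scaling used here. PDE3B, an enzyme that cyclic GMP inhibits and that insulin signalling uses in fat and liver, differed by -0.21 ± 0.40 (adjusted p = 0.216; 95% interval -0.52 to 0.11). PDE7A, a rolipram-insensitive cyclic AMP enzyme, differed by -0.28 ± 0.27 (adjusted p = 0.147; 95% interval -0.63 to 0.08). PDE8A, a high-affinity cyclic AMP enzyme, differed by -0.36 ± 0.24 and was lower in 5 of 6 experiments (adjusted p = 0.0519; 95% interval -0.70 to -0.02). In NaB against Ctl the differences were -0.22 ± 0.34 for PDE3B, -0.36 ± 0.55 for PDE7A and -0.16 ± 0.44 for PDE8A. For these 3 genes the levels with and without butyrate overlapped in both comparisons. The values depended on the scaling: in DoxyNaB against Doxy the PDE3B and PDE7A differences were 0.25 and 0.14 with normexp, and with quantile normalization that of PDE3B was -1.08 and passed both thresholds (adjusted p = 0.00373).

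**Figure D3:**
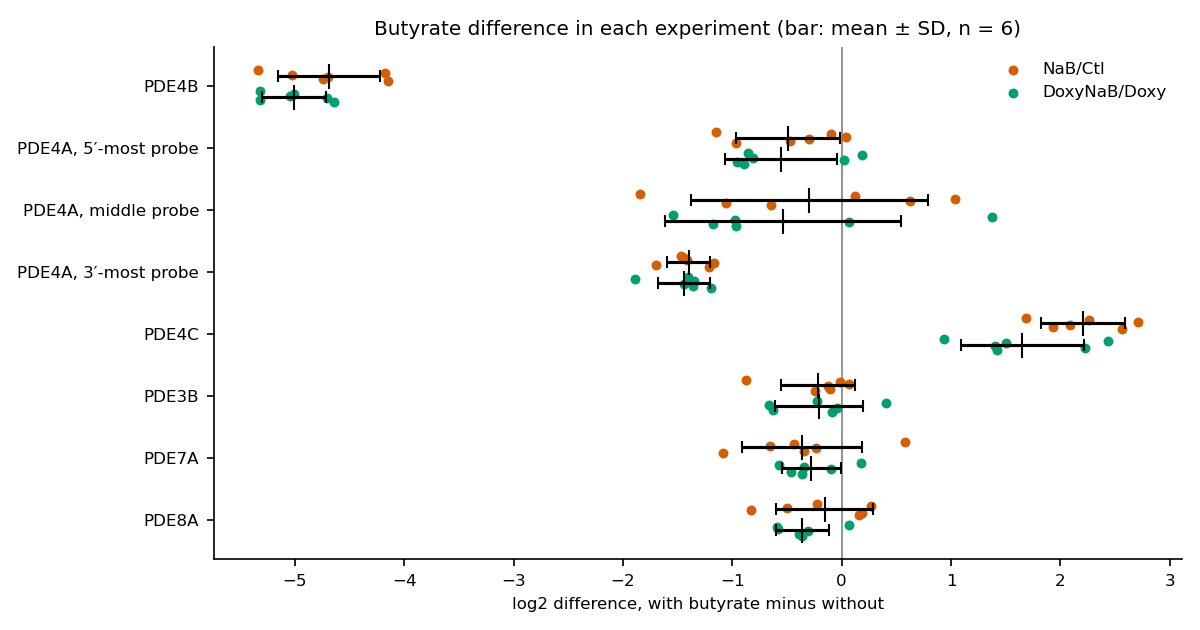
Log2 difference with butyrate minus without (horizontal axis) for the 8 tested probes, in NaB/Ctl and in DoxyNaB/Doxy. Points are the 6 experiments and bars the mean ± SD. PDE4B lies between -5.34 and -4.15, PDE4C between 0.94 and 2.71, and PDE3B, PDE7A and PDE8A between -1.08 and 0.58.

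The levels of PDE3B, PDE7A and PDE8A ranged widely among the arrays of 1 group. In Ctl, PDE3B was between -3.31 and -2.63 with a median of -2.96. PDE7A was between -3.41 and -0.91 there, with a median of -1.59, and PDE8A between -1.005 and -0.24, with a median of -0.63. The median of PDE3B was -3.09 in NaB, -2.82 in Doxy and -3.18 in DoxyNaB, that of PDE7A -2.09, -1.70 and -1.99, and that of PDE8A -0.70, -0.44 and -0.82. None of these group medians lay outside the range of the Ctl arrays.

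The other 7 probes, for PDE3A, PDE4D (3 probes), PDE7A (a second probe), PDE7B and PDE8B, had no group in which every array had the call, and were not tested. PDE3A is the form of heart and platelets, and PDE4D the fourth PDE4 enzyme. For the PDE3A probe all 12 arrays of experiments 2 to 4, and 0 of the 12 others, had the call. Its level was between -3.55 and -2.85 in Ctl of experiments 2 to 4 and between -7.47 and -6.69 in Ctl of the other 3. For the 3 PDE4D probes it was 12, 9 and 8 of the arrays of experiments 2 to 4, and 0, 2 and 0 of the others. The counts were 7 and 0 for PDE7B, the paralog of PDE7A, 5 and 0 for PDE8B, the paralog of PDE8A, and 12 and 1 for the second PDE7A probe. PDE8B has no value on the DoxyNaB array of experiment 4, where its spot was an outlier.

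On the 5 butyrate arrays of high negative controls, 6 of these 7 probes were higher than on their partners in every case (PDE8B on the 4 with a value), while PDE7B was lower in 1. The PDE4D probe at chr5:58306311-58306370 (minus strand, NCBI36) was 1.31 to 6.45 higher there and between -0.18 and 0.34 on the other 7. For the PDE4D probe at chr5:59319791-59319850 the values were 0.92 to 2.46 and -0.39 to 0.53. The ranges on the 5 and on the 7 overlapped for the PDE4D probe at chr5:58300684-58300743 (0.38 to 1.60 and -2.07 to 3.15). They also overlapped for PDE3A (0.41 to 2.29 and -1.78 to 1.80) and PDE7B (-0.22 to 1.77 and -1.04 to 0.54). For PDE8B and the second PDE7A probe they did not. Whether the 4 genes with no tested probe changed with butyrate cannot be read from these signals, and the part of the negative control signal was not tested.

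**Figure D4:**
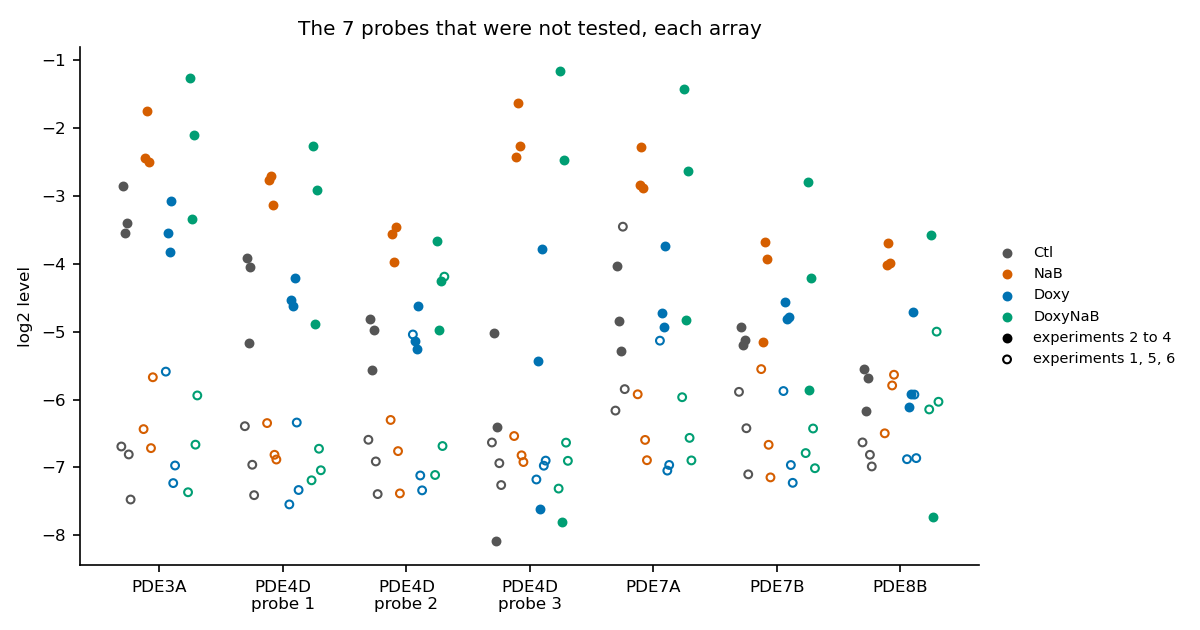
Log2 level (vertical axis) on each array of the 7 probes that were not tested, for the 4 groups. Filled points are experiments 2 to 4 and open points experiments 1, 5 and 6. For PDE3A the lowest filled Ctl point is at -3.55 and the highest open one at -6.69.

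Doxycycline was compared in the same fit, at an adjusted p under 0.01 with no fold threshold, for the 7 tested probes other than PDE4B. In Doxy against Ctl 0 of the 7 passed, beside 0.5% of all tested probes, with differences between -0.09 and 0.45. At an unadjusted p under 0.05 limma had 1 of the 7, PDE4C, and the methods' paired t-test had 0. Only 3 of 6 Ctl and 5 of 6 Doxy arrays had PDE4C well above background, so its part in these counts is a description. In DoxyNaB against NaB 0 of the 7 passed, beside 2.49% of all tested probes, with differences between -0.17 and 0.06, and both tools had 0 at an unadjusted p under 0.05. The interaction, the butyrate difference without doxycycline minus that with it, was passed by 0 of the 7, beside 1.24% of all tested probes, and both tools again had 0 at an unadjusted p under 0.05. The interaction was 0.04 for the 3′-most PDE4A probe (95% interval -0.22 to 0.31), and this interval does not show that the responses were alike. For PDE4C, given without a test, the interaction was 0.55 ± 0.64 (SD, n = 6). For PDE4B, given without a test, Doxy minus Ctl was 0.02 ± 0.13, DoxyNaB minus NaB was -0.30 ± 0.35, and the interaction was 0.32 ± 0.36 (SD, n = 6).

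The probes most like PDE4B were found by Pearson's r over the 24 arrays, after each level was centred on its experiment, among 18329 tested probes with a value on every array. The 5 highest were ITPRIPL2 (r = 0.998), ANO1, a calcium-activated chloride channel (r = 0.997), E2F2, a cell cycle transcription factor (r = 0.997), ZAK, a stress-activated kinase (r = 0.997), and C6orf192 (r = 0.997). The lowest was VDR, the vitamin D receptor, with r = -0.996, whose probe was 1.24 higher in DoxyNaB than in Doxy and 1.18 higher in NaB than in Ctl. In DoxyNaB against Doxy ITPRIPL2 was at -4.41 ± 0.29 and ANO1 at -4.25 ± 0.21. The 24 arrays fall into 12 with and 12 without butyrate, and 2209 probes had r over 0.95, so the measure mostly reports that split. Among the members, r was 0.985 for the 3′-most PDE4A probe, 0.729 and 0.365 for the 5′-most and middle ones, -0.936 for PDE4C, 0.527 for PDE7A, 0.516 for PDE8A and 0.459 for PDE3B.

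The rest of the cyclic AMP pathway was read from 11 lists with 100 genes, chosen with earlier results of these data known. Of the 100, 70 had a tested probe. Each was counted by its tested probe of highest mean level, which for 58 was well above background on all 24 arrays. In DoxyNaB against Doxy 20 of the 70 rose and 11 fell, and in NaB against Ctl 20 rose and 10 fell. Together that is 44.3% called in DoxyNaB against Doxy, and 37.9% of the 58, beside 30.6% of all tested probes. The median difference of the 70 was 0.28 on the log2 scale, beside 0.10 over all tested probes. Both values over all tested probes count every probe of a gene, also those not above background on all 24 arrays. The sets compared are therefore unlike. Values below are the log2 differences in NaB against Ctl and then in DoxyNaB against Doxy, with the SD over 6 experiments unless stated.

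Of the receptors that raise cyclic AMP, 7 of 11 were tested, and in both comparisons 4 were called higher and 1 lower. The prostaglandin E2 receptor PTGER4 rose by 2.22 ± 0.26 and 2.07 ± 0.23 (limma, adjusted p = 2.8e-13 and 6.81e-13). PTGER2, another receptor for prostaglandin E2, was at 2.06 ± 0.45 and 2.41 ± 0.59, but its probe was well above background on 15 of 24 arrays and entered the test only through the NaB group. In NaB against Ctl PTGER2 was no longer called at 0.56 under normexp (adjusted p = 0.0482), nor at 0.60 once arrays were quantile normalized (adjusted p = 0.105). ADORA2B, an adenosine receptor, was named after its values were seen, and fell, with -2.48 ± 0.35 (5 experiments, since 1 Ctl array has no value) and -2.61 ± 0.38. Of the G protein alpha subunits, 5 of 6 were tested. GNAZ rose by 1.75 ± 0.18 and 1.58 ± 0.30. GNAI1 fell, with -1.13 ± 0.17 and -1.32 ± 0.16 (-0.96 with normexp in NaB against Ctl, under the fold). A second tested probe of GNAI3 was at 0.99 and 1.28, beside 0.18 and 0.71 for the probe counted. Of the adenylyl cyclases, the enzymes that make cyclic AMP, 5 of 10 were tested, and by the probe counted 0 rose and 2 fell. A second tested probe of ADCY4 was at 2.22 and 1.92, beside 0.16 and 0.26 for the probe counted. ADCY3 was at -1.98 ± 0.24 and -2.13 ± 0.28 (adjusted p = 1.25e-11 and 4.23e-12). ADCY7 was at -1.72 ± 1.18 and -1.94 ± 0.95, well above background on 19 arrays, all 12 without butyrate among them. With normexp the ADCY7 fall was no longer called, at -0.86 and -0.40.

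Protein kinase A moved in opposite ways between its catalytic subunits, with 9 of 10 genes of its list tested, 3 higher and 1 lower in both comparisons. PRKACB fell, with -2.70 ± 0.24 and -2.68 ± 0.24 (adjusted p = 1.8e-14 and 1.76e-14), while PRKACA rose by 1.28 ± 0.10 and 1.37 ± 0.34. The regulatory subunit PRKAR2B rose by 1.46 ± 0.59 and 1.37 ± 0.29, and the inhibitor PKIA by 1.95 ± 0.25 and 2.02 ± 0.26. PRKAR1B, not called, has 3 tested probes with differences of -1.795 to -0.43 and of -1.85 to -0.49, and the probe counted had the smallest. With median scaling the calls of PRKACA (0.53 and 0.82) and PRKAR2B (0.71 and 0.81) ended in both comparisons, and with normexp both fell under the fold in NaB against Ctl (0.93 and 0.92). Among other proteins that bind cyclic AMP, 8 of 12 were tested, 4 rose and 0 fell. A second tested probe of CNGB1 was at 1.81 and 1.20, beside 0.19 and 0.13 for the probe counted. The channel HCN2 rose by 1.77 ± 0.35 and 2.33 ± 0.27. The channel CNGA1, which entered the test only through the butyrate groups, was at 2.29 ± 0.49 and 2.26 ± 0.56, with 0.77 under normexp in NaB against Ctl. The membrane proteins POPDC1 (BVES in the files) and POPDC2, the second named after its values were seen, rose by 1.57 ± 0.35 and 1.34 ± 0.53, and by 1.15 ± 0.40 and 1.24 ± 0.64. The POPDC1 call ended under normexp, quantile and median scaling.

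The A-kinase anchoring proteins place protein kinase A, and often PDE4 enzymes, at sites in the cell, and 11 of 15 were tested, with 2 higher and 2 lower in both comparisons. AKAP12 was at -1.40 ± 0.20 and -1.76 ± 0.19 and AKAP1 at -1.02 ± 0.08 and -1.29 ± 0.16, while AKAP13 was at 1.05 ± 0.55 and 1.26 ± 0.35 and AKAP3 at 1.64 ± 0.50 and 1.14 ± 0.61. With median scaling AKAP13 was at 0.30 and 0.71 and no longer called, and in NaB against Ctl it also fell under the fold with normexp (0.85) and quantile normalization (0.96), as did AKAP1 (-0.87 and -0.83). The AKAP3 probe was tested only through the butyrate groups, and its call ended in both comparisons under normexp, quantile and median scaling. Of 6 partners of PDE4, all tested, PDE4DIP (myomegalin) was at 5.08 ± 1.86 and 4.63 ± 1.46. These values are of its tested probe of highest mean level, which too was tested only through the butyrate groups. The 7 tested probes of PDE4DIP differed by 2.355 to 5.08 in NaB against Ctl and by 2.05 to 4.63 in DoxyNaB against Doxy. The probe given had the largest difference of the 7 in both. The other 5 partners did not pass.

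Of the CREB family and its coactivators, 8 of 8 were tested, 0 rose and 2 fell. ATF1 was at -1.31 ± 0.16 and -1.46 ± 0.24, and the coactivator CRTC3 at -1.40 ± 0.17 and -1.08 ± 0.29, the second at -0.59 and under the fold with normexp. Of 7 immediate targets of CREB, 6 were tested and 3 rose in each comparison. FOS rose by 4.63 ± 0.31 and 4.92 ± 0.39 (adjusted p = 9.7e-15 and 4.47e-15) and NR4A3, an orphan nuclear receptor, by 3.51 ± 0.91 and 3.62 ± 0.55. The third was NR4A2 in NaB against Ctl (1.51 ± 0.45, beside 0.61 ± 0.22 in DoxyNaB against Doxy) and PER1, a clock gene named after its values were seen, in DoxyNaB against Doxy (1.20 ± 0.26, beside 0.70 ± 0.16 in NaB against Ctl).

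Among phosphodiesterases outside the members, 4 of 14 were tested, 2 rose and 1 fell in both comparisons. PDE2A, which breaks down cyclic AMP and cyclic GMP and is stimulated by cyclic GMP, rose by 3.02 ± 0.17 and 2.45 ± 0.13 (adjusted p = 2.18e-14 and 2.55e-13). PDE5A, a cyclic GMP enzyme and the target of sildenafil, rose by 1.28 ± 0.20 and 1.10 ± 0.32, a call that ended under normexp, quantile and median scaling. PDE9A, also specific for cyclic GMP, was at -1.41 ± 0.33 and -1.48 ± 0.32. Of the efflux pumps ABCC4 and ABCC5, both tested, 0 were called in NaB against Ctl and ABCC4, named after its values were seen, fell in DoxyNaB against Doxy (-1.26 ± 0.48).

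With doxycycline, 4 genes of the lists passed in a comparison, and 0 passed the interaction. PDE2A was 0.80 ± 0.32 higher in Doxy than in Ctl, in 6 of 6 experiments (limma, adjusted p = 2.31e-04). In DoxyNaB against NaB the CREB target NR4A2 fell by 0.83 ± 0.29 (adjusted p = 0.00109), the coactivator CRTC1 by 0.46 ± 0.13 (adjusted p = 1.12e-04) and EZR, a membrane linker that anchors protein kinase A, by 0.26 ± 0.12 (adjusted p = 0.00694), each in 6 of 6 experiments. CRTC1 has a second tested probe, which differed by 0.66 the other way. The interaction had an adjusted p of 0.0182 for NR4A2, 0.0393 for CRTC1, 0.0412 for PDE2A and 0.102 for EZR. Fitting only the arrays of the groups compared ended all 4 calls, with adjusted p of 0.0273 for PDE2A, 0.0157 for NR4A2, 0.0287 for CRTC1 and 0.167 for EZR. With the methods' paired t-test all 4 ended too, with adjusted p of 0.0764, 0.0573, 0.0315 and 0.101 in the same order. Normexp and median scaling each ended all 4 as well. The calls of NR4A2 and EZR also ended when 1 experiment was left out, that of NR4A2 without experiment 5 (adjusted p = 0.0106) and that of EZR without any 1 of the 6.

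**Figure D5:**
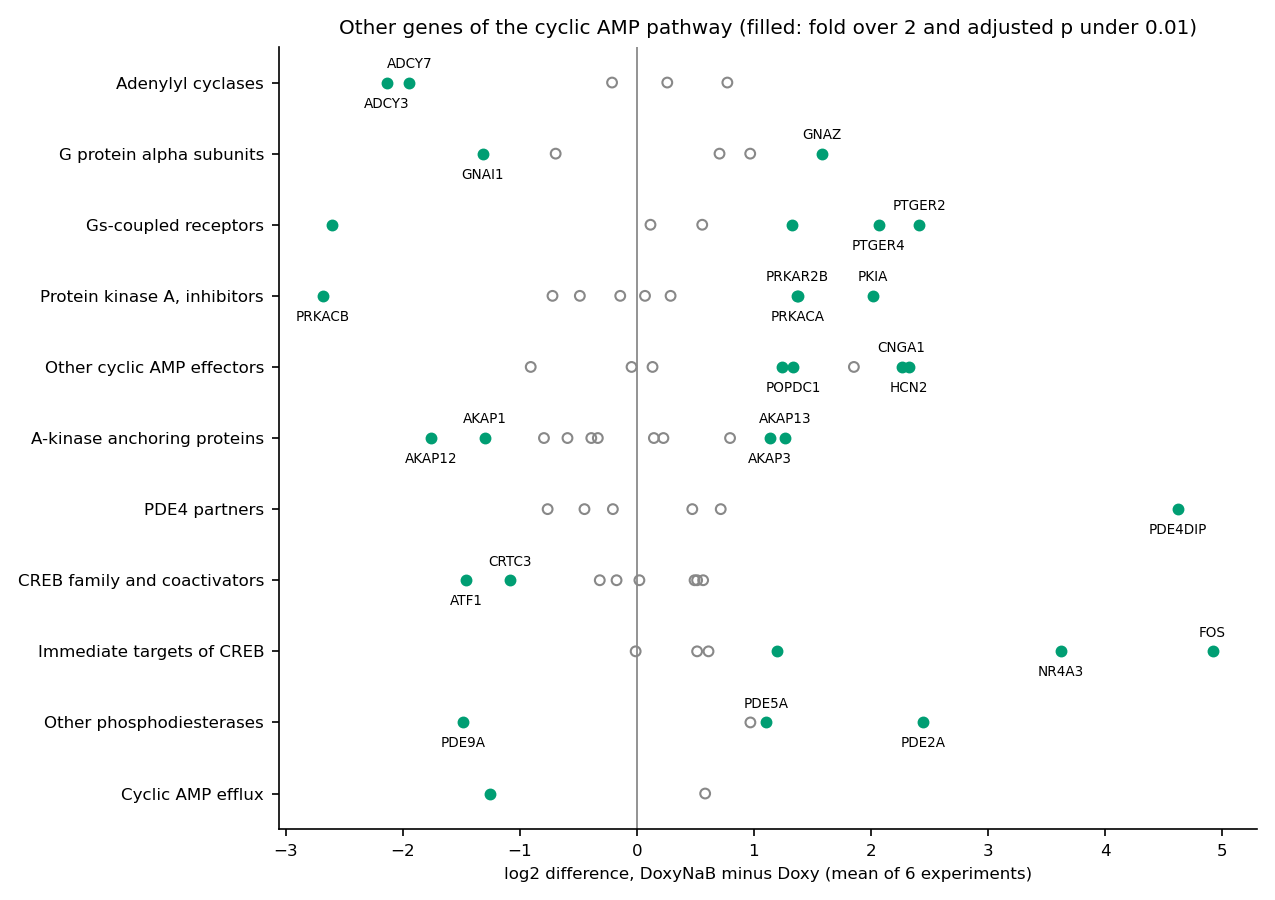
Log2 difference between DoxyNaB and Doxy (horizontal axis, mean of 6 experiments) for the tested genes of the 11 lists, 1 point per gene, with 1 receptor gene left out. Filled points passed a fold over 2 and an adjusted p under 0.01, and names mark those chosen by the naming rule. FOS at 4.92 and PDE4DIP at 4.63 lie farthest to the right and PRKACB at -2.68 farthest to the left.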

How the data were processed

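Expression was measured on 24 one-colour Agilent whole-genome arrays of HCT-116 cells, 6 experiments in each of 4 groups. The deposited files hold signal intensities obtained for the authors with Agilent Feature Extraction 9.5.3.1: background and spatial trend were removed within each array, and arrays were not scaled to each other. Each array has 44495 spots, of which 43118 are not controls and cover 34127 probes. Control spots and outlier spots (359 to 795 per array) were left out here, spots of a probe were averaged, and log2 values were set against the array's 75th percentile. Precision is limited by the number of arrays and by signal over background.

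All 24 arrays entered 1 limma 3.58.1 fit in R 4.3.3, in which the experiment was a block, after the paired test that the methods state. Deviations of arrays of 1 experiment correlated with r of 0.22 to 0.85 in 35 of 36 pairs and of -0.22 for NaB and DoxyNaB of experiment 3. p-values were adjusted by Benjamini-Hochberg over the 18983 tested probes. NaB/Ctl and DoxyNaB/Doxy were called at a fold over 2 and an adjusted p under 0.01, and the other contrasts at that p alone. Simulated data had independent normal noise for 18983 probes, 200 of them changed by 2 on the log2 scale in DoxyNaB. The fit of DoxyNaB/Doxy recovered 194 of the 200, with 1 false call among the unchanged probes. No effect of experiment, slide or background was simulated, so the count is no rate of false calls on the real arrays. The methods' t-test, other scalings, filters, blocks and thresholds, and leaving out each experiment were tried as alternatives.

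The members and the gene lists were chosen with earlier results of these data known. A list gene was represented by its tested probe of highest mean level. The genes named from a list are the 3 rises and 3 falls of largest size called in both butyrate comparisons and of 1 sign in 6 of 6 experiments, and any gene called with doxycycline or in the interaction. Promoter windows (250 bases before to 50 after a start) are those of RefSeq on GRCh38.p14, found for 8 of the 10 genes. The values of 1 gene of the receptor list are not reported here, though it enters the counts. Python 3.11.15 was used for tables and plots, with pandas 2.3.3, scipy 1.17.1 and matplotlib 3.10.9.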

Additional observations from a re-analysis of the deposited data

Results flagged for a closer look

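In 3 of 32 sets of 6 arrays (8 tested probes in 4 groups), 1 array lay far from the other 5 by Dixon's criterion, which chance meets in about 1 in 20 sets. PDE8A was at -1.54 on the DoxyNaB array of experiment 2, the array of highest negative control signal (248.9), with the nearest of the others at -0.85. PDE7A was at -2.83 on the NaB array of experiment 1, with the nearest at -2.20, and at -2.98 on the Doxy array of experiment 1, with the nearest at -1.88. The PDE7A probe was lowest on the experiment 1 array in all 4 groups, and the arrays of that experiment were on slides and scan dates of their own.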

How the results depend on the processing

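The count of member probes called in DoxyNaB/Doxy was 3 with the experiment as a block and 3 with no replicate block, and the count of 3 in NaB/Ctl was likewise 3. Pathway genes called without the block numbered 19 up and 10 down in DoxyNaB/Doxy and 20 up and 10 down in NaB/Ctl. Among the members and the pathway genes named by the rule, the block changed no other call than those of AKAP3 in DoxyNaB/Doxy (adjusted p = 0.0107 without it) and of CRTC1 (0.0412) and EZR (0.057) in DoxyNaB/NaB. Leaving out each experiment gave 3 to 3 member probes in both comparisons, 19 to 21 pathway genes up and 11 to 12 down in DoxyNaB/Doxy, and 19 to 20 up and 9 to 10 down in NaB/Ctl. Median scaling, with signals floored at 5, called 5 member probes in DoxyNaB/Doxy and 6 in NaB/Ctl, with 11 pathway genes up in each and 19 and 22 down. Quantile normalization called 5 member probes in NaB/Ctl, and normexp 11 pathway genes up there. These scalings move the median of all probes from 0.17 to -0.58 (median), -0.09 (quantile) and 0.07 (normexp) in NaB/Ctl, and the share of calls that were rises from 65.3% to 21.1%, 43.8% and 53.2%. In DoxyNaB/Doxy the median moved from 0.10 to -0.46, -0.11 and 0.21, and the share of rises from 59.9% to 25.0%, 42.9% and 59.3%. The sign turned for PDE3B and PDE7A with normexp (0.25 and 0.14 in DoxyNaB/Doxy) and for the middle PDE4A probe in experiments 2 to 4 alone (0.16). The mean over the 3 PDE4A probes was -0.84 in DoxyNaB/Doxy, under the fold. In NaB/Ctl, AKAP13 fell under the fold without experiment 2, 5 or 6 (0.995, 0.95 and 0.96) and AKAP1 without experiment 3 (-0.998), as did AKAP3 in DoxyNaB/Doxy without experiment 3 (0.96). The causes were not tested. The other contrasts, counted for the members other than PDE4B, had 0 called under every alternative run. Taking the 75th percentile over probes in place of spots was chosen after seeing the data and left both member counts at 3.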
